A study of Rattus norvegicus with 5 samples.

Results

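Cholesterol genes were followed in lumbar dorsal horn (spinal segments L4-L6), the region where sensory fibres of the hindlimb end. The members were a list of 31 genes, 17 enzymes of synthesis and 14 genes of its control, efflux, lysosomal release, storage and oxysterol formation. Each was found by its symbol as 1 of the 17321 rows of the estimated count table, and all 31 passed the low-count filter that left 13478 genes to test. The tissue came from Sprague Dawley rats, 9 days after the operation, in 3 libraries of the CCI group and 2 of the SHAM group. CCI commonly stands for chronic constriction injury, in which a peripheral nerve is loosely tied to produce lasting pain, and SHAM for surgery that spares the nerve. The rats carried no named allele and received no named agent. Sex, age, the side taken and whether each library is from 1 animal are not stated in the sources used here, so p-values measure only the spread between these libraries.

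Cholesterol is built from acetyl units through mevalonate, isoprenoids, squalene and lanosterol. The transcription factor SREBP2 raises the genes of this route when sterol is scarce, and INSIG1 holds it back when sterol is plentiful. Excess cholesterol acts in the other direction: oxysterols activate the nuclear receptors LXR alpha and LXR beta, which raise the efflux pumps ABCA1 and ABCG1. In lysosomes LIPA frees cholesterol from its esters and NPC2 and NPC1 pass it out, while SOAT1 esterifies it again for droplets. The brain and spinal cord make nearly all of their own cholesterol, and most of it lies in myelin.

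Total estimated counts ran from 20053353 to 23673198 per library. The share of ribosomal RNA rows was 16.0% in CCI 3 and between 2.18% and 2.71% elsewhere. All 10 neuronal markers of the list used here had counts in every library, and the sum of their levels was 3174 to 3590 CPM (counts scaled to library size by the trimmed mean of M-values, TMM) in CCI and 3881 to 4176 CPM in SHAM. The most abundant of them were Snap25 (mean 1801 CPM in CCI, 2077 CPM in SHAM) and Tubb3 (550 CPM in CCI, 880 CPM in SHAM). The markers did not share 1 direction: 6 had a log2 fold change (CCI over SHAM) below 0 and 4 above, with a median of -0.070. Schwann cell and fibroblast markers stood apart in CCI 2 and CCI 3: the summed Schwann cell level was 98.2, 291 and 597 CPM in CCI 1 to 3, against 84.4 and 97.4 CPM in SHAM, and the summed fibroblast level was 115, 812 and 697 CPM in CCI against 127 and 171 CPM in SHAM. Results on the members are therefore also given without those libraries. In bulk tissue, fewer cells of a type and less RNA per cell cannot be told apart.

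Among the members, the synthesis enzymes and the 8 genes of efflux, lysosomal release and storage had medians on opposite sides of 0. All 17 synthesis enzymes had a log2 fold change (CCI over SHAM) below 0, with a median of -0.23 (14.7% lower) and a range of -0.41 to -0.048, although none was called lower by itself. The 8 efflux, lysosomal and storage genes had a median of 0.32, and 6 of them lay above 0. Genes listed beside these, outside the 31, lay mostly below 0. Of 11 other genes of efflux and the LXR response 9 lay below 0 (median -0.16), and of 11 other genes of intracellular transport and storage 9 did (median -0.075). The former group includes the fatty acid genes Fasn, Scd and Scd2. Of the 31 members only Npc2, the soluble carrier of cholesterol in lysosomes, was called, 1.80-fold higher in CCI. A call meant an adjusted p of at most 0.05 in edgeR's quasi-likelihood test over all tested genes together with a fold of at least 1.5. By that rule 2.59% of all tested genes were called higher and 0.26% lower, so 1 member of 31 higher (3.23%) and 0 lower is near the background. Over all tested genes the median log2 fold change was 0.013, the quartiles were -0.14 and 0.21, and 48.1% of genes lay below 0. No lists were tested as sets here, and these counts and medians are descriptions.

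**Figure D1:**
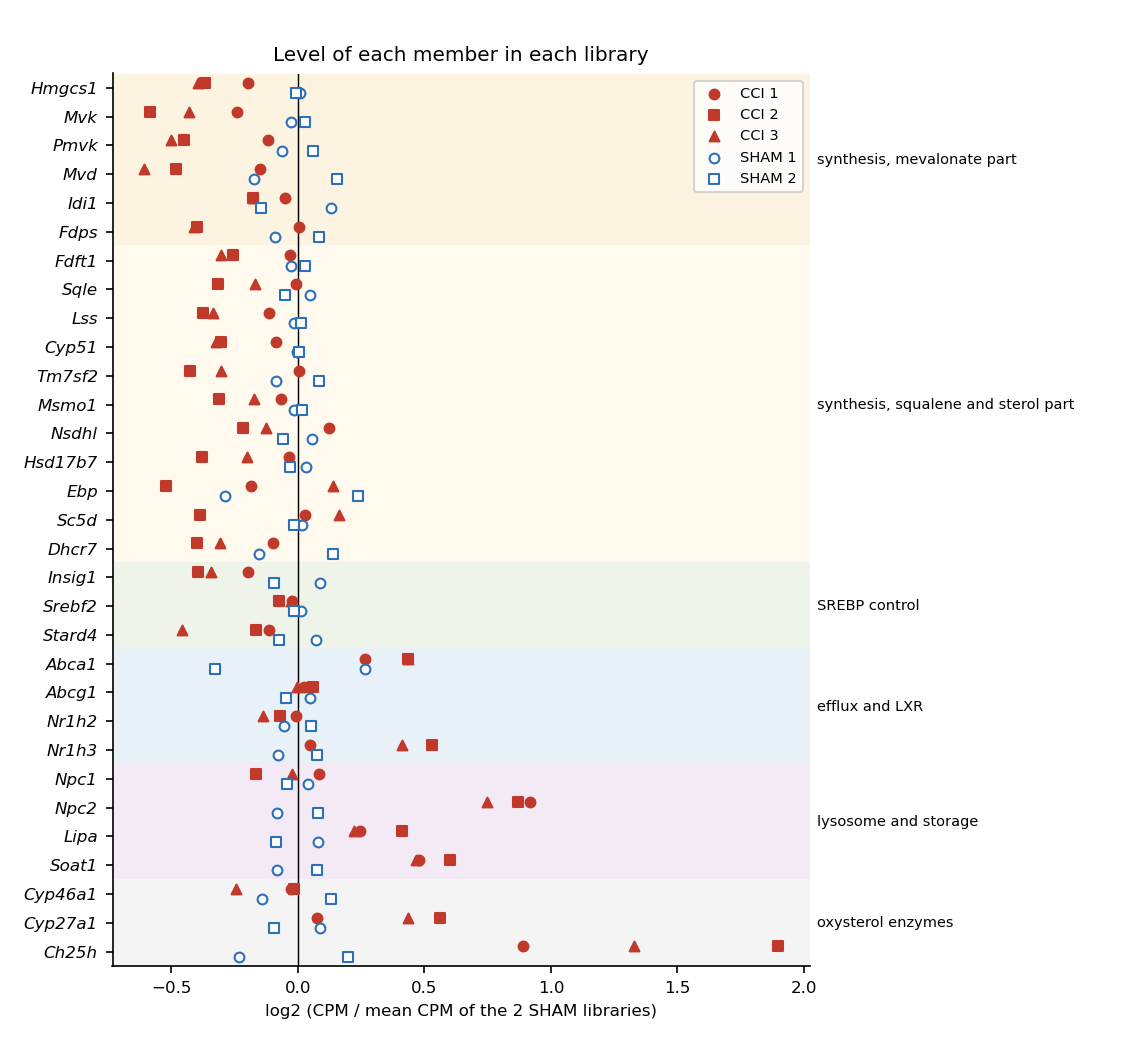
Level of each of the 31 members in each library, as log2 of its CPM over the mean CPM of the SHAM libraries (x axis), in role order from top to bottom; filled red symbols are the 3 CCI libraries and open blue symbols the 2 SHAM libraries. Synthesis enzymes lie mostly left of 0 in CCI 2 and CCI 3 and nearer to 0 in CCI 1, while Npc2, Soat1, Lipa and Ch25h lie right of both SHAM libraries in all 3 CCI libraries.

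The mevalonate part of the route had the larger differences, with a median log2 fold change of -0.33 over 6 enzymes. Hmgcs1, which makes the HMG-CoA that enters the route, had 939, 836 and 819 CPM in CCI 1 to 3, against 1082 and 1071 CPM in SHAM 1 and 2. All 3 CCI libraries lay below both SHAM libraries, with a log2 fold change of -0.32 (SE 0.11, 95% interval -0.57 to -0.065, adjusted p = 0.205). Mvk, the kinase of mevalonate, had 47.9, 37.7 and 41.9 CPM in CCI, against 55.4 and 57.6 CPM in SHAM. Its groups did not overlap either, and its log2 fold change of -0.41 (SE 0.12, 95% interval -0.69 to -0.13, adjusted p = 0.136) had the smallest p of the 17 enzymes. Pmvk, the next kinase, was 42.5 ± 6.40 CPM in CCI (SD, n = 3) and 54.02 ± 3.31 CPM in SHAM (SD, n = 2), again without overlap (log2 fold change -0.35, adjusted p = 0.256).

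The remaining enzymes of this part overlapped between the groups. Mvd, which makes isopentenyl diphosphate, had 44.2, 35.1 and 32.2 CPM in CCI, against 43.5 and 54.6 CPM in SHAM, so CCI 1 stood above SHAM 1 (log2 fold change -0.40, adjusted p = 0.273). Idi1, the isomerase of isopentenyl diphosphate, had a log2 fold change of -0.13 (95% interval -0.40 to 0.13). Fdps, which makes farnesyl diphosphate, had a log2 fold change of -0.26 (95% interval -0.58 to 0.070), with 185 CPM in CCI 1 between the SHAM values of 174 and 196 CPM, and 140.2 and 139 CPM in CCI 2 and CCI 3. Mvd and Idi1 had fractional estimated counts, which arise where reads fit more than 1 row, and are uncertain.

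The enzymes from squalene to cholesterol differed less, with a median log2 fold change of -0.19 over 11 enzymes. Lss, which closes squalene epoxide into lanosterol, had 123, 103 and 106 CPM in CCI, against 132 and 135 CPM in SHAM (log2 fold change -0.27, SE 0.11, adjusted p = 0.274). Cyp51, the lanosterol demethylase, had 487, 419.7 and 414 CPM in CCI, against 516 and 519.7 CPM in SHAM (log2 fold change -0.23, SE 0.11, adjusted p = 0.347). In both genes every CCI library was below both SHAM libraries, with CCI 1 the nearest to SHAM. The same held for Fdft1, squalene synthase (184 CPM in CCI, 211 CPM in SHAM), for Msmo1, the sterol methyl oxidase (185 CPM in CCI, 209.7 CPM in SHAM), and for Hsd17b7, a sterol reductase of low level (13.2 CPM in CCI, 15.2 CPM in SHAM). Their log2 fold changes were -0.19 for Fdft1, -0.18 for Msmo1 and -0.20 for Hsd17b7, which had fractional counts and is uncertain.

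Of the other sterol enzymes, Dhcr7, which completes cholesterol, had a log2 fold change of -0.26 (95% interval -0.56 to 0.034), and Tm7sf2, a sterol reductase, one of -0.23 (95% interval -0.56 to 0.10). Sqle, the squalene epoxidase that limits this part of the route, was 105 ± 11.4 CPM in CCI (SD, n = 3) and 117 ± 5.72 CPM in SHAM (SD, n = 2), a log2 fold change of -0.16 (95% interval -0.42 to 0.11). The smallest differences of the 17 were those of Sc5d, a sterol desaturase (-0.048, 95% interval -0.41 to 0.31), and Nsdhl, a sterol dehydrogenase (-0.067, 95% interval -0.36 to 0.23). Ebp, a sterol isomerase with 141 to 190 counts per library, had the widest interval (-0.17, 95% interval -0.72 to 0.39). Sc5d had 138 CPM in CCI 2 and 201 CPM in CCI 3, on either side of the SHAM values of 178 and 182 CPM.

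**Figure D2:**
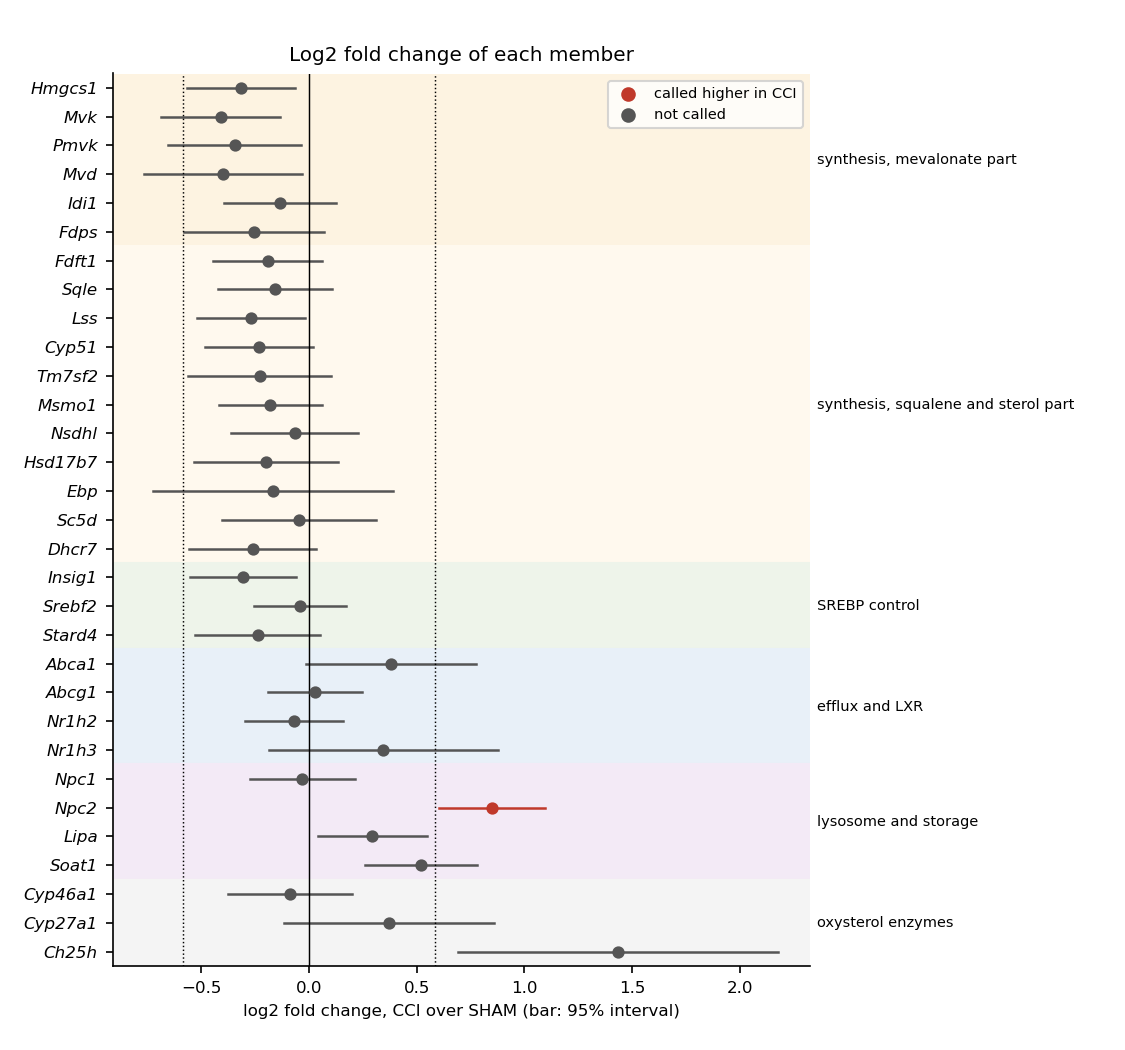
Log2 fold change of each member, CCI over SHAM (x axis), with its 95% interval as a bar and dotted lines at a fold of 1.5 in either direction; red marks the called gene and grey the others. All 17 synthesis enzymes lie left of 0, from -0.41 to -0.048, and Npc2 at 0.85 is the only member past the test and the fold.

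In 8 of the 17 synthesis enzymes (47.1%) all CCI libraries lay below both SHAM libraries, and in no enzyme did all lie above. Over all tested genes the CCI libraries lay wholly below in 18.1% and wholly above in 18.6%. At an unadjusted p under 0.05, 5 of the 17 were lower (Mvk, Hmgcs1, Pmvk, Mvd and Lss) and 0 higher, where 6.32% of all tested genes were lower and 9.65% higher.

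The CCI libraries did not share the difference evenly. CCI 2 was below both SHAM libraries in 17 of 17 enzymes, CCI 3 in 15 and CCI 1 in 8, and CCI 1 was the highest of the 3 CCI libraries in 15 of 17. The median over the enzymes of the log2 ratio to the SHAM mean was -0.065 in CCI 1, -0.38 in CCI 2 and -0.30 in CCI 3. CCI 2 and CCI 3 are also the libraries with more Schwann cell and fibroblast RNA, and with both left out the median log2 fold change of the enzymes was -0.078, with 15 of 17 below 0. In that fit the median over all tested genes was -0.011, and 13 of 17 enzymes lay below that median. The part of Schwann cells and fibroblasts in the difference was not tested. When the Schwann cell mean entered the fit as a covariate, the median was -0.11 and 16 of 17 enzymes lay below 0.

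Myelin genes lay on the same side as the enzymes. All 12 markers of oligodendrocytes and myelin had a log2 fold change below 0, with a median of -0.34; none was called, and in 11 of 12 the CCI libraries lay wholly below SHAM. Their summed level was 34153, 29581 and 28529 CPM in CCI 1 to 3, against 40392 and 39553 CPM in SHAM, and none had a count of 0. In the mean log2(CPM + 1) of the list, CCI 1 (9.57) was again nearest to SHAM (9.81 and 9.72), above CCI 3 (9.43) and CCI 2 (9.37). The enzymes had the same order (6.45 in CCI 1, 6.26 in CCI 3, 6.16 in CCI 2, and 6.48 and 6.55 in SHAM). As an order of list means, it was not particular to myelin. The neuron list had it too (7.454 in CCI 1, 7.411 in CCI 3, 7.324 in CCI 2, and 7.498 and 7.503 in SHAM). Among the CCI libraries the astrocyte list also had it (8.01 in CCI 1, 7.97 in CCI 3, 7.86 in CCI 2). Single genes of these other lists did not all share the order of their mean. In CCI 1 to 3 the neuronal gene Tubb3 had it (730, 427 and 492 CPM). The neuronal gene Syt1 (97.6, 117 and 102 CPM) and the astrocyte gene Slc1a3 (263, 301 and 257 CPM) did not. With this myelin mean as a covariate the median of the enzymes was 0.097 and 5 of 17 lay below 0. Because the myelin mean itself does not overlap between the groups, the surgery and the myelin level cannot be told apart in that fit, which called 32 genes in the whole table.

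**Figure D3:**
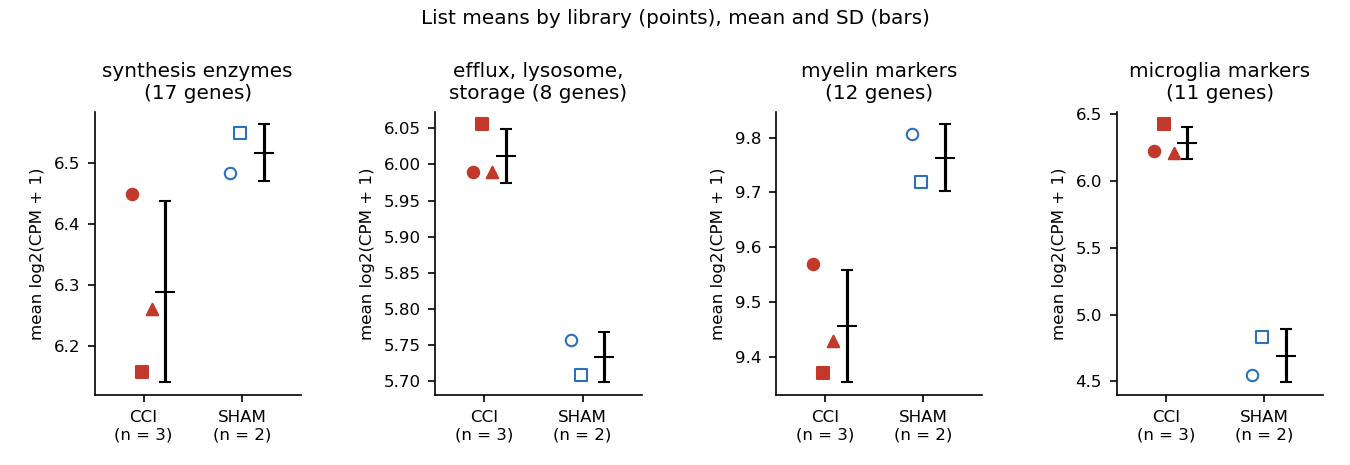
Mean log2(CPM + 1) of 4 gene lists (y axes, each with its own range) in each library, CCI left and SHAM right, with the group mean and SD beside the points; circles, squares and triangles are libraries 1, 2 and 3. The synthesis and myelin lists are lower in the CCI libraries with CCI 1 nearest to SHAM, and the handling and microglia lists are higher in all 3.

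Per length, Hmgcs1 was the most abundant transcript of the route and Ebp the least. In the deposited TMM-scaled TPM (a unit per length, in which genes can be compared), Hmgcs1 averaged 332 in CCI and 407 in SHAM and ranged from 317 to 409.6 over the 5 libraries. Cyp51 followed with 183 in CCI and 211 in SHAM, then Fdps with 174 in CCI and 204 in SHAM, Msmo1 with 146 in CCI and 163 in SHAM, and Sc5d with 104 in CCI and 106 in SHAM. The ranges of Cyp51 (173 to 212) and Fdps (156 to 215) overlapped, so their order is not fixed by these libraries, whereas that of Hmgcs1 lay above both. At the low end were Nsdhl (25.4 in CCI, 26.1 in SHAM), Hsd17b7 (10.5 in CCI, 11.8 in SHAM) and Ebp (9.97 in CCI, 10.98 in SHAM), and the last 2 overlapped in range.

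**Figure D4:**
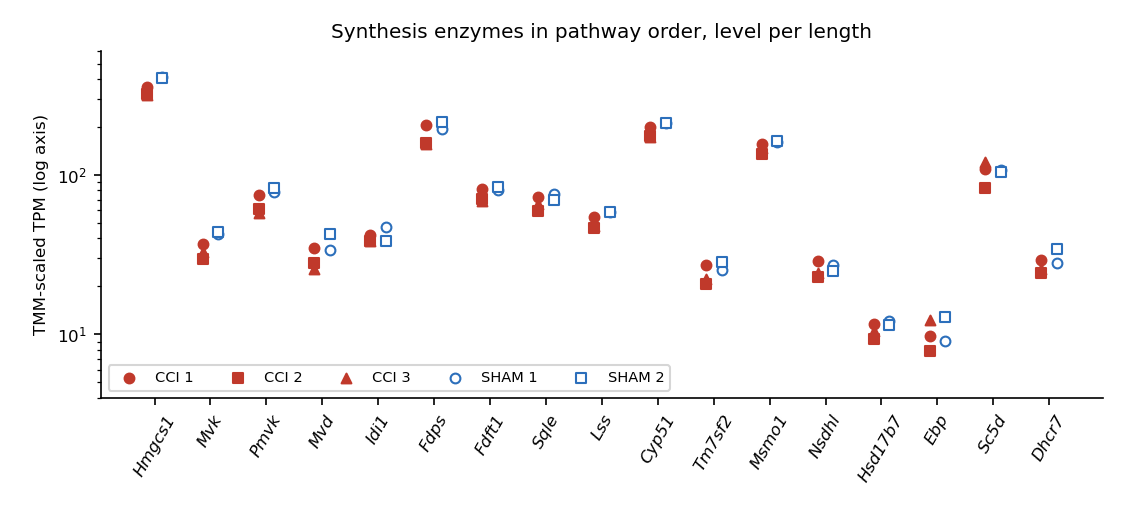
Level per length of the 17 synthesis enzymes in pathway order from left to right, as TMM-scaled TPM on a log axis, with filled red symbols for the CCI libraries and open blue symbols for the SHAM libraries. Mean levels span from 9.97 in CCI and 10.98 in SHAM for Ebp to 332 in CCI and 407 in SHAM for Hmgcs1, and the difference between groups is small beside the differences between enzymes.

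The control genes of the route lay on the same side. Insig1, the sterol-sensing brake that is itself a target of SREBP2, had 226, 197 and 204 CPM in CCI, against 275 and 243 CPM in SHAM. Its groups did not overlap (log2 fold change -0.31, SE 0.11, 95% interval -0.55 to -0.062, adjusted p = 0.206). Stard4, a cytosolic cholesterol carrier, had 50.5, 48.7 and 39.8 CPM in CCI, against 57.5 and 51.9 CPM in SHAM, also without overlap (log2 fold change -0.24, SE 0.13, adjusted p = 0.406). Srebf2, which encodes SREBP2, differed by much less: 325 to 337 CPM in CCI and 339 to 346 CPM in SHAM, a log2 fold change of -0.040 (95% interval -0.25 to 0.17), with fractional counts that make it uncertain.

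The promoters of 26 of the 31 members were matched by symbol in RefSeq (build GRCr8), as windows of 250 bases before and 50 after each start. They are shown for the pair of mevalonate enzymes of smallest p and, for contrast, for Npc2 and Ch25h, the members with the largest increases in fold. Capitals mark a CCAAT box (CCAAT or ATTGG on the printed strand, the letters bound by NF-Y) or a GC box (GGGCGG or CCGCCC, bound by Sp1), known partners of SREBP.
Hmgcs1, chr2:53382054-53382353, + strand: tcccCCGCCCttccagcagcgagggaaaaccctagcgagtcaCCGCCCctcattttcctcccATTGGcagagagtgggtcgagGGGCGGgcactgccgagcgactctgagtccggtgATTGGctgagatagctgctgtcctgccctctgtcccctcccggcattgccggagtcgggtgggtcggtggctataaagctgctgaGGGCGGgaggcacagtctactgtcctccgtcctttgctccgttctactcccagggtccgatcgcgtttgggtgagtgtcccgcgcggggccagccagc
Mvk, chr12:47819454-47819753, - strand: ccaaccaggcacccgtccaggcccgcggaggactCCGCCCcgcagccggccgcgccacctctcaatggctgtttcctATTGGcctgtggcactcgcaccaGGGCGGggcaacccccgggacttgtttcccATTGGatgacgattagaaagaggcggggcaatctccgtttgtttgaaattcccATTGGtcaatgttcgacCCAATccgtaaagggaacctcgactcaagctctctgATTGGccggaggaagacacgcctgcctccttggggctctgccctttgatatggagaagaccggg
Npc2, chr6:110149196-110149495, - strand: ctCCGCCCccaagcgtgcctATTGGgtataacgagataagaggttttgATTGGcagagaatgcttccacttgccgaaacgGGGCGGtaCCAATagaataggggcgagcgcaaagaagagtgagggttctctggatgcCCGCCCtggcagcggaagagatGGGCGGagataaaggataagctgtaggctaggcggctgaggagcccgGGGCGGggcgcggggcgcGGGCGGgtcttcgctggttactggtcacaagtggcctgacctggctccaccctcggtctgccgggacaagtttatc
Ch25h, chr1:241429317-241429616, - strand: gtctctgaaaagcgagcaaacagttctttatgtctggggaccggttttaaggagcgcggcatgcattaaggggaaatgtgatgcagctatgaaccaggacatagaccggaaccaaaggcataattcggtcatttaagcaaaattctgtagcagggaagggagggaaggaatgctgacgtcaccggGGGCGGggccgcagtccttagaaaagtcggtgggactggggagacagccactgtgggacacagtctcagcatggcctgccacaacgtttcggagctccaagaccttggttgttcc

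CCAAT boxes were frequent in the synthesis promoters. A CCAAT box, searched on both strands, stood in 12 of 14 synthesis promoters and in 3 of 7 efflux, lysosomal and storage promoters, against 37.5% of all 33469 promoters and 37.1% of the 10299 promoters of tested genes. Mvk held 5 and Hmgcs1 2, while Npc2 held 3 and Ch25h 0. A GC box stood in 12 of 14 synthesis promoters and in 4 of 7 of the others, against 33.1% of all promoters and 59.9% of those of tested genes. The sterol regulatory element was searched only as the letters TCACNCCAC, which overlap neither box. These letters were in none of the 26 windows and in 1.12% of all promoters. At so low a share, their absence from 26 windows cannot show that the members lack the element. These are matches of letters in a short window of the reference genome, and boxes of both kinds also stood in the promoter of Npc2, the member called higher.

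Among the lysosomal and storage genes Npc2 rose. It had 153, 148 and 136 CPM in CCI 1 to 3, against 76.3 and 85.2 CPM in SHAM 1 and 2. The lowest CCI library lay well above the highest SHAM library, and CCI 1 was the highest of all. The log2 fold change was 0.85 (SE 0.11, 95% interval 0.60 to 1.09, adjusted p = 0.00357), and Npc2 ranked 109 of the tested genes by p. A two-sided exact permutation test of its log2 CPM gave p = 0.1, the smallest that the 10 splits of these 5 libraries can give. Without SHAM 1 or without SHAM 2 the gene was no longer called (log2 fold change 0.77, adjusted p = 0.109 without SHAM 1; 0.92, adjusted p = 0.0534 without SHAM 2). With CCI 2 and CCI 3 both left out the log2 fold change was 0.91, from 1 CCI library whose spread could not be measured, so no call is drawn from it.

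Soat1, which esterifies cholesterol for storage, came next. It had 31.3, 34.1 and 31.1 CPM in CCI, against 21.2 and 23.7 CPM in SHAM, with no overlap between the groups. Its log2 fold change was 0.52 (1.43-fold, SE 0.12, 95% interval 0.26 to 0.78, adjusted p = 0.0505), short of both thresholds. Lipa, the acid lipase that frees cholesterol from esters in lysosomes, had 65.9, 73.8 and 64.7 CPM in CCI, against 58.8 and 52.3 CPM in SHAM, again without overlap (log2 fold change 0.29, SE 0.11, adjusted p = 0.232). Npc1, the membrane partner that takes cholesterol from NPC2, differed little, at 153 ± 13.3 CPM in CCI (SD, n = 3) and 157 ± 6.27 CPM in SHAM (SD, n = 2). Its log2 fold change was -0.031 (95% interval -0.28 to 0.21), an interval that lies wholly below that of Npc2, although the difference between the genes was not tested and Npc1 had fractional counts.

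Efflux genes were less uniform. Abca1, the pump that loads lipoproteins with cholesterol, had 164, 185 and 185 CPM in CCI, against 165 and 109 CPM in SHAM. SHAM 2 alone was low, and CCI 1 was level with SHAM 1 (log2 fold change 0.38, SE 0.17, adjusted p = 0.328). Abcg1, a second efflux pump, was 84.0 ± 1.83 CPM in CCI (SD, n = 3) and 82.4 ± 3.82 CPM in SHAM (SD, n = 2), and its 95% interval of -0.19 to 0.25 on the log2 scale excludes a fold of 1.5. Nr1h3, which encodes LXR alpha, had 4.12, 5.76 and 5.30 CPM in CCI, against 3.77 and 4.20 CPM in SHAM, from 83 to 145 counts per library (log2 fold change 0.35, SE 0.23, adjusted p = 0.50). Nr1h2, which encodes LXR beta and was the more abundant receptor per length (42.6 TPM in CCI, 43.9 TPM in SHAM, against 4.23 and 3.27 TPM for Nr1h3), had a log2 fold change of -0.070 (95% interval -0.30 to 0.16).

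**Figure D5:**
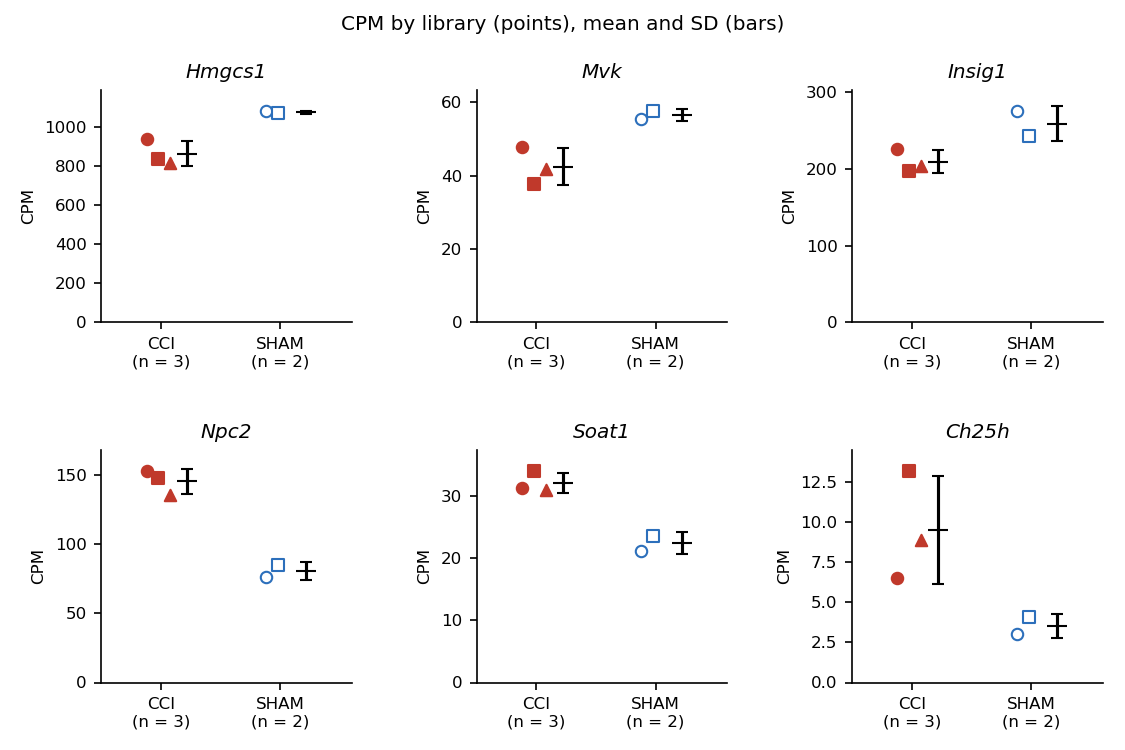
CPM by library (y axes start at 0) of 3 members of the synthesis and control groups (Hmgcs1, Mvk, Insig1) and 3 of the storage, lysosomal and oxysterol groups (Npc2, Soat1, Ch25h), CCI left and SHAM right, with the group mean and SD beside the points; circles, squares and triangles are libraries 1, 2 and 3. The groups do not overlap in any of the 6 genes, which were chosen with their values known: CCI is lower in the upper row and higher in the lower row. Of all 31 members, 16 overlapped between the groups. The CCI libraries lay wholly below SHAM in 11 members (35.5%, beside 18.1% of all tested genes). They lay wholly above in 4 (12.9%, beside 18.6%).

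In all 3 CCI libraries the 2 arms stood closer together than in SHAM. The mean log2(CPM + 1) of the synthesis enzymes minus that of the 8 handling genes was 0.46, 0.10 and 0.27 in CCI 1 to 3, against 0.73 and 0.84 in SHAM. On the handling side the mean over the 8 genes was 5.99, 6.06 and 5.99 in CCI and 5.76 and 5.71 in SHAM, so CCI 1 lay with CCI 3 there and not between the groups as in the enzymes. In 3 of the 8 genes (37.5%) the CCI libraries lay wholly above SHAM, beside 18.6% of all tested genes.

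Oxysterol enzymes held the largest fold among the members. Ch25h, the inducible enzyme of macrophages that makes 25-hydroxycholesterol, had 6.53, 13.1 and 8.86 CPM in CCI, from 141 to 331 counts, against 3.0 and 4.05 CPM in SHAM, from 66 and 81 counts. Every CCI library exceeded both SHAM libraries, but CCI 2 stood far above CCI 1. The log2 fold change was 1.44 (2.71-fold, SE 0.32, 95% interval 0.69 to 2.18), and the adjusted p of 0.0605 missed the threshold. It was called by the likelihood ratio test (adjusted p = 0.0020), by DESeq2 (adjusted p = 0.00190) and by edgeR's quasi-likelihood test without CCI 1 (adjusted p = 0.00660) or without CCI 2 (1.13, adjusted p = 0.0386). Limma-voom (adjusted p = 0.112) did not call it, nor did the quasi-likelihood test with upper quartile scaling (adjusted p = 0.0565). The TPM table, the Schwann cell covariate and the fit without CCI 3 did not call it either. Cyp27a1, which makes another oxysterol and is found in macrophages, had 5.51, 7.70 and 7.05 CPM in CCI, against 5.55 and 4.90 CPM in SHAM, with CCI 1 inside the SHAM range (log2 fold change 0.37, SE 0.22, adjusted p = 0.437). Cyp46a1, the neuronal enzyme through which the brain disposes of cholesterol, was 41.9 ± 3.66 CPM in CCI (SD, n = 3) and 44.6 ± 5.91 CPM in SHAM (SD, n = 2), a log2 fold change of -0.089 (95% interval -0.38 to 0.20).

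Microglial markers were higher beside Npc2, Soat1, Lipa and Ch25h. Of the 11 markers that the table holds, 9 were called higher, the median log2 fold change was 1.82, and in 10 of 11 all CCI libraries lay above both SHAM libraries. Their summed level was 1215, 1313 and 1155 CPM in CCI, against 365 and 413 CPM in SHAM, with none at a count of 0. Their part in the rise of Npc2 was not tested. Markers of border macrophages were less even, with a summed level of 23.0, 44.8 and 56.3 CPM in CCI, against 27.0 and 30.1 CPM in SHAM. The astrocyte list had a median log2 fold change of 0.060 over 10 genes, with 1 called higher and 1 lower.

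Other genes of the pathway were counted from a list of 57, of which 54 were in the table and 53 were tested. Of these 2 were called higher (3.77%, beside 2.59% of all tested genes) and 0 lower, and 32 lay below 0, with a median of -0.065. Gpr183, the receptor for oxysterols made from the product of Ch25h, rose: it had 9.72, 12.98 and 13.4 CPM in CCI, against 3.82 and 3.65 CPM in SHAM (log2 fold change 1.69, SE 0.21, adjusted p = 0.00280). The other was Pltp, a phospholipid transfer protein of lipoproteins and an LXR target, with 90.4, 90.9 and 112 CPM in CCI, against 60.1 and 67.4 CPM in SHAM (log2 fold change 0.62, SE 0.13, adjusted p = 0.0387), from fractional counts that make it uncertain. Among lipoprotein genes Clu, a carrier protein of astrocytes, had 967 ± 86.1 CPM in CCI (SD, n = 3) and 669 ± 55.2 CPM in SHAM (SD, n = 2), a log2 fold change of 0.53 (adjusted p = 0.0571). The lipoprotein genes did not rise as a group: of the 7 tested, Pltp and Clu included, 4 lay below 0, with a median of -0.028.

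The nearest genes of synthesis and its control split. Lbr, a nuclear envelope protein with sterol reductase activity, had a log2 fold change of 0.42 (adjusted p = 0.252). Scap, the escort of SREBP, stood at -0.19 (adjusted p = 0.402) and Mylip, an LXR target that degrades the LDL receptor, at 0.33 (adjusted p = 0.299, fractional counts). None of the 11 other genes of efflux and the LXR response was called. In 5 of them (45.5%, beside 18.1% of all tested genes) all CCI libraries lay below both SHAM libraries. In 0 of them did all lie above, beside 18.6% of all tested genes. Of these 11 genes the 2 of smallest p were Fasn, fatty acid synthase, with a log2 fold change of -0.39 (adjusted p = 0.185), and Scd2, a fatty acid desaturase, with one of -0.33 (adjusted p = 0.281). The ABC transporter genes Abca2 (-0.17) and Abca7 (-0.33) were also among the 5, whereas Scd, another desaturase, overlapped between the groups (-0.37).

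Uptake receptors outside the 31 had a median log2 fold change of 0.26 over 8 tested genes, with 6 above 0, while 11 other genes of intracellular transport and storage had one of -0.075, with 9 below 0. Scarb1, a receptor for high density lipoprotein, had 36.4 ± 3.12 CPM in CCI (SD, n = 3) and 27.8 ± 1.41 CPM in SHAM (SD, n = 2), a log2 fold change of 0.39 (adjusted p = 0.141). Msr1, a macrophage scavenger receptor, had a log2 fold change of 2.61 (adjusted p = 0.201, SE 0.85), which rests on 16, 99 and 28 counts in CCI and on 4 and 10 in SHAM. Plin2, the coat protein of lipid droplets, had 73.5, 44.1 and 37.1 CPM in CCI, against 27.4 and 32.2 CPM in SHAM, without overlap but with a wide spread in CCI (log2 fold change 0.79, SE 0.31, adjusted p = 0.300). Stard5, a sterol carrier, stood at -0.44 (adjusted p = 0.184), and Sult2b1, a sterol sulfotransferase at 2.06 to 4.95 CPM, at -0.97 (adjusted p = 0.0796, fractional counts).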

How the data were processed

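Estimated counts per gene symbol were deposited by the authors as 1 table, made with kallisto 0.44.0 on rn6, per the submitters' processing notes; the annotation and strand setting are not stated there. The authors also deposited a signal table named TPM, scaled by the trimmed mean of M-values, per the labels; its columns do not sum to 1 fixed total. Groups follow the treatment label (3 CCI, 2 SHAM); replicate numbers are in accession order.

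Estimated counts were rounded. Genes passing filterByExpr (minimum count 10) were fitted with edgeR 4.0.16 in R 4.3.3 (TMM, robust glmQLFit, two-sided glmQLFTest), and p-values were adjusted by the Benjamini-Hochberg method across the whole tested table. SE is the log2 fold change over the root of F, and 95% intervals use it with the fit's degrees of freedom. The fit was tested on simulated counts. Alternatives used limma 3.58.1, DESeq2 1.42.0, other scalings and filters, the TPM table with pseudocounts of 0.5 and 0.1, covariates, and left-out libraries.

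Members, lists and thresholds were chosen with earlier results of these data known. All members are named; library values are given for called members, those with an adjusted p under 0.25 and the 2 of smallest p in each of 6 role groups, and of other pathway genes the called ones and the 2 of smallest p per group, except a result that is not reported here. Other values shown were chosen after they were seen. Promoters are RefSeq's, build GRCr8, and none of the study's reads were used for them. Figures used matplotlib 3.10.9.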

Additional observations from a re-analysis of the deposited data

How the results depend on the processing

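No paired analysis was possible because the replicate numbers follow accession order and the labels pair no libraries. The synthesis median kept its sign under every alternative except the myelin covariate (0.097); without single libraries it ran from -0.31 to -0.16, and without CCI 2 and CCI 3 together it was -0.078. No alternative called a member lower. The median of the 8 efflux, lysosomal and storage genes was 0.20 with the Schwann cell covariate, 0.26 with the myelin covariate, 0.15 without CCI 2 and CCI 3, and 0.15 to 0.38 without single libraries. The count of all called genes (384) was 646 with the likelihood ratio test, 614 with DESeq2, 173 with the Schwann cell covariate, 32 with the myelin covariate and 61 to 763 without single libraries, namely 763 without CCI 1, 61 without SHAM 1 and 78 without SHAM 2. Members called higher numbered 2 (Npc2 and Ch25h) with the likelihood ratio test, DESeq2, library totals and no low-count filter, 0 with the myelin covariate, and 0 to 2 without single libraries. Leaving out a SHAM library leaves 1, assumed to vary like CCI, and leaving out CCI 2 and CCI 3 leaves 1, assumed to vary like SHAM. The myelin covariate and the joint removal of CCI 2 and CCI 3 were chosen after the data were seen.

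The members below changed sign under 1 or more alternatives. None was called as reported above. With the myelin covariate they included members far from 0, such as Ch25h, which was 1.44 as reported and was called with the likelihood ratio test, DESeq2, library totals and no low-count filter. Limma-voom, the TPM table and the Schwann cell covariate did not call Ch25h. With the Schwann cell covariate Nsdhl was 0.095 and Npc1 0.053. Without single libraries Idi1 ran from -0.28 to 0.011, Nsdhl from -0.17 to 0.0050, Ebp from -0.41 to 0.11, Sc5d from -0.17 to 0.098, Abcg1 from -0.028 to 0.074, Npc1 from -0.092 to 0.034 and Cyp46a1 from -0.22 to 0.043. Without CCI 2 and CCI 3, Nsdhl was 0.11, Sc5d 0.014 and Npc1 0.072. With the myelin covariate Pmvk was 0.064, Idi1 0.20, Fdps 0.21, Fdft1 0.10, Sqle 0.28, Lss 0.061, Cyp51 0.066, Tm7sf2 0.23, Msmo1 0.097, Nsdhl 0.44, Hsd17b7 0.25, Sc5d 0.34, Insig1 0.049, Srebf2 0.032, Stard4 0.0018, Nr1h3 -0.39, Npc1 0.31, Cyp27a1 -0.20 and Ch25h -0.078. The cause of these changes was not tested.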
